A study of Mus musculus with 4 samples.

Results

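NF-kB is a family of dimeric transcription factors, and the genes described here encode its subunits and the IkB proteins that hold it back or work with it in the nucleus. The list names 10 genes, and the members were taken as the probe sets that the platform annotation pairs with exactly 1 of those symbols. Of the 10, 9 had such a probe set, 1 each, out of 19938 genes with 1 symbol (28944 probe sets). They are Nfkb2, Rel, Rela, Relb, Nfkbia, Nfkbib, Nfkbie, Nfkbiz and Nfkbid; Nfkb1 is not analysed here.

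The study compares inflammatory expression in microglia, the resident macrophages of the brain, with and without Bid, a pro-apoptotic relative of Bcl-2. RNA was hybridised to Affymetrix Mouse Gene 1.0 ST arrays, 1 array for each of 4 groups: microglia labelled Bid-/- with lipopolysaccharide (LPS) for 3 h, wild-type (WT) microglia with LPS for 3 h, untreated microglia labelled Bid-/-, and untreated WT microglia. The strain is given as C57Bl for WT; the sources used here give no background for the Bid-/- cells, no age of the animals and no number of cultures or animals behind an array. Nothing was replicated, so differences between pairs of arrays lack any check against replicates and carry no p-value. Bid-/- is used below as the name the label gives an array.

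In resting cells the IkB proteins IkBa, IkBb and IkBe bind NF-kB dimers and keep them out of the nucleus. LPS, a bacterial cell wall component sensed by TLR4, activates the IKK kinase complex, which marks these IkB proteins for degradation and so frees the dimers. Several subunit and IkB genes are themselves NF-kB targets in macrophages, which makes the pathway refill its own inhibitors, while the atypical IkB proteins IkBz and IkBNS act on NF-kB in the nucleus.

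The promoters of the members are shown first. RefSeq promoter windows of 300 bases (250 before and 50 after an annotated start, build GRCm38.p6) were matched for 7 of the members, 11 windows in all; Relb and Nfkbiz had none in the table used. Each window was searched on both strands for the 10-base kB consensus of NF-kB. For each of the 5 members that passed the test for LPS below, 1 window is printed (Nfkb2 and Nfkbid have others) 5′ to 3′ on the gene's strand, with matches to the consensus in capitals. The printed Nfkbid window is the only one of that gene with a match, and the printed Nfkb2 window holds more matches than that gene's others.
Nfkb2, chr19:46304487-46304786, plus strand: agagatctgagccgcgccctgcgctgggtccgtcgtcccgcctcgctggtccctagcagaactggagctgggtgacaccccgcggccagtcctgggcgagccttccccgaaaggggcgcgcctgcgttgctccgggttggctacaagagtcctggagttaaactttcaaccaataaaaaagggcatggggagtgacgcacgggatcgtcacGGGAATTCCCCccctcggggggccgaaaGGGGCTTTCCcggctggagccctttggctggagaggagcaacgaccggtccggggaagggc
Rel, chr11:23770920-23771219, minus strand: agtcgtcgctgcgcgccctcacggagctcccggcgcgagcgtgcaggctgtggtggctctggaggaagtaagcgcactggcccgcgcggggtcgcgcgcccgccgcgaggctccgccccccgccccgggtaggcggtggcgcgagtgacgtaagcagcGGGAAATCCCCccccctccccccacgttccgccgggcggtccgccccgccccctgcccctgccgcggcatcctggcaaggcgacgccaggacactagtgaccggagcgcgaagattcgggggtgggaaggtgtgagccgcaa
Nfkbia, chr12:55492598-55492897, minus strand: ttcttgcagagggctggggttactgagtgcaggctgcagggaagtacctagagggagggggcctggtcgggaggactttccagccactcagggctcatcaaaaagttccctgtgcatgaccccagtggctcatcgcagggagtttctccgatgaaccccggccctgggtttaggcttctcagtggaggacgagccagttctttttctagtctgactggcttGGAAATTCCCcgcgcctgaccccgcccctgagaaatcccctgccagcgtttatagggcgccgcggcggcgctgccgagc
Nfkbib, chr7:28766595-28766894, minus strand: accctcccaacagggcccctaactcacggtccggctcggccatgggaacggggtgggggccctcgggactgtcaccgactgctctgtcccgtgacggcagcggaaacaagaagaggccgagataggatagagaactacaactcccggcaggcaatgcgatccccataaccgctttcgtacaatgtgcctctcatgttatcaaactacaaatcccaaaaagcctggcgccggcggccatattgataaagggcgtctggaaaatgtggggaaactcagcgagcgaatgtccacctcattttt
Nfkbid, chr7:30422156-30422455, plus strand: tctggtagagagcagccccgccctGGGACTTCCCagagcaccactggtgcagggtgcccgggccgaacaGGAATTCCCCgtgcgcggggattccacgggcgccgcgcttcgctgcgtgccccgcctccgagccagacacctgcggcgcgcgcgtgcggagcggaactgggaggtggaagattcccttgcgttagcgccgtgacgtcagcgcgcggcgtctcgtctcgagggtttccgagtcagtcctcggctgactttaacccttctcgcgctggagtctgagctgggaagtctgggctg

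Matches to the kB consensus lay in 7 of the 11 windows and in 5 of the 7 genes, namely Nfkb2, Rel, Nfkbia, Nfkbie and Nfkbid. A pair of the Nfkb2 windows overlap and share 1 of these sites. Over all 32851 windows of this length 8.46% held one, or 10.6% of the 11523 windows of genes tested for LPS. By gene the shares were 9.55% and 12.5%. Matches were also frequent in the list of NF-kB target genes used below, in 39.3% of 28 windows and 45.8% of 24 genes. In the Nfkbia window the match GGAAATTCCC began 29 bases before the start. The Nfkb2 window held 3 matches, a pair of them overlapping, and the Rel window held an overlapping pair that began 92 bases before the start. Another annotated Nfkb2 start had GGGACTTTCC, the site of the immunoglobulin kappa enhancer, 10 bases after it; 0.155% of all windows held that sequence on either strand. The Nfkbib window had no match, and the gene rose with LPS, while Nfkbie had a match and did not pass. Whether a match goes with the LPS change was not tested. A match describes the letters of the window and not binding.

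All 9 genes read higher with LPS in both genotypes, and 5 of them passed the test. Subunit genes were higher by 0.62 to 2.09 on the log2 scale on the Bid-/- arrays and by 0.56 to 1.38 in WT. The cytoplasmic inhibitors were higher by 0.91 to 1.29 and by 1.08 to 1.47, and the nuclear IkB genes by 1.82 to 1.86 and by 0.98 to 1.69. On both LPS arrays every member lay above both control arrays, which also held for 20.2% of the 11326 genes tested.

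**Figure D1:**
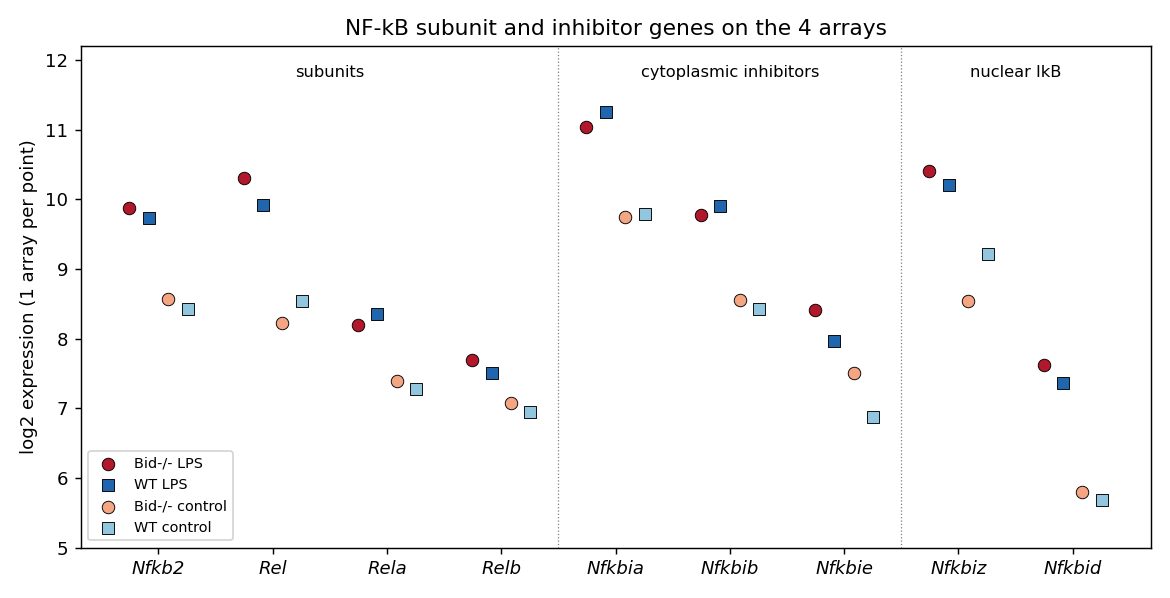
Log2 expression of each measured member (y axis) on the 4 arrays, 1 point per array, with circles for the Bid-/- arrays and squares for WT; dark points are LPS and light points control. For each gene both dark points lie above both light ones; heights are to be read within a gene, since probe sets of different genes are not comparable.

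Among the subunits, Rel, which encodes c-Rel (Entrez Gene 19696), showed the highest LPS change. Rel read 10.31 on the Bid-/- LPS array and 9.92 on the WT LPS array, against 8.22 on the Bid-/- control array and 8.54 on the WT control array. It was thus lowest on the Bid-/- control array and highest on the Bid-/- LPS array. The change was 2.09 on the log2 scale on the Bid-/- arrays (4.26-fold) and 1.38 in WT (2.60-fold), and Rel rose in the additive limma fit (mean change 1.74, SE 0.22, adjusted p = 0.0473). Among all genes compared it ranked 53 of 10995 on the Bid-/- arrays and 149 of 11129 in WT.

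Nfkb2 (Entrez Gene 18034) encodes p100, which is both the precursor of the p52 subunit and an inhibitor of NF-kB. It read 9.88 on the Bid-/- LPS array and 9.73 on the WT LPS array, against 8.57 on the Bid-/- control array and 8.42 on the WT control array. The LPS change was 1.31 in both genotypes (SE of the mean 0.14, limma adjusted p = 0.0378), and the Bid-/- arrays were 0.15 higher in either condition.

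Rela and Relb did not pass. Rela (Entrez Gene 19697), which encodes p65, the main activating subunit, read 8.19 on the Bid-/- LPS array and 8.35 on the WT LPS array, against 7.39 on the Bid-/- control array and 7.27 on the WT control array. Its change was 0.80 on the Bid-/- arrays and 1.08 in WT (SE of the mean 0.16, limma adjusted p = 0.0605). Relb (Entrez Gene 19698), the usual partner of p52, had the smallest difference of the 9 genes, with 7.69 on the Bid-/- LPS array and 7.50 on the WT LPS array, against 7.07 on the Bid-/- control array and 6.94 on the WT control array. That is a change of 0.62 on the Bid-/- arrays and 0.56 in WT (SE of the mean 0.14, limma adjusted p = 0.0918).

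Of the cytoplasmic inhibitors, Nfkbia and Nfkbib rose. Nfkbia (Entrez Gene 18035), which encodes IkBa, the rapid feedback inhibitor, read 11.03 on the Bid-/- LPS array and 11.25 on the WT LPS array, against 9.74 on the Bid-/- control array and 9.79 on the WT control array. These readings make a 2.45-fold higher level with LPS on the Bid-/- arrays and a 2.75-fold higher level in WT (mean log2 change 1.38, SE 0.13, limma adjusted p = 0.0321). Nfkbib (Entrez Gene 18036), for IkBb, read 9.77 on the Bid-/- LPS array and 9.90 on the WT LPS array, against 8.56 on the Bid-/- control array and 8.43 on the WT control array. The change of 1.21 on the Bid-/- arrays and 1.47 in WT was close to that of Nfkbia (SE of the mean 0.15, limma adjusted p = 0.0414).

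Nfkbie (Entrez Gene 18037) encodes IkBe, which binds mainly c-Rel and p65 dimers. It read 8.41 on the Bid-/- LPS array and 7.96 on the WT LPS array, against 7.50 on the Bid-/- control array and 6.88 on the WT control array. The change of 0.91 on the Bid-/- arrays and 1.08 in WT did not pass (SE of the mean 0.15, limma adjusted p = 0.0554).

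The nuclear IkB genes differed in their patterns. Nfkbid (Entrez Gene 243910), which encodes IkBNS, read 7.62 on the Bid-/- LPS array and 7.37 on the WT LPS array, against 5.80 on the Bid-/- control array and 5.68 on the WT control array. It rose by 1.82 on the Bid-/- arrays and by 1.69 in WT, 3.53-fold and 3.23-fold (SE of the mean log2 change 0.13, limma adjusted p = 0.0272, the lowest of the 9). Nfkbiz (Entrez Gene 80859) encodes IkBz, a co-activator that macrophages need for a second set of LPS genes such as Il6. Nfkbiz read 10.40 on the Bid-/- LPS array and 10.20 on the WT LPS array, against 8.54 on the Bid-/- control array and 9.22 on the WT control array. The control arrays differed more from each other than the LPS arrays did. Its change was 1.86 on the Bid-/- arrays and 0.98 in WT, and it did not pass in a fit that penalises unequal changes (mean 1.42, SE 0.26, limma adjusted p = 0.0659).

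The limma fit models log2 expression on genotype and LPS. Its error combines how far a gene's response differs between genotypes, on 1 residual degree of freedom, with a prior error. That prior is taken from other genes of similar level and weighs more, with 3.07 degrees of freedom. Nfkb2 had equal responses in both genotypes, so its SE and adjusted p rest on the prior error alone. The fit called 190 of 11326 genes higher with LPS, 1.68% of those tested, and 177 lower (1.56%). Of the 9 members 5 passed as higher and 0 as lower, and all 9 had an unadjusted p under 0.05, against 9.08% of all genes higher at that level. The calls depend on the genes tested: without the floor on low values 0 of 19938 genes passed and the members' adjusted p lay at 0.0951 or above. With noise inside the rounding of the deposited values, all 9 members passed, in a fit with 7.41 prior degrees of freedom. Rel had an adjusted p of 0.0533 without an intensity trend in the fit.

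At the level of single pairs of arrays, 6 of the 9 members were at least 2-fold higher with LPS on the Bid-/- arrays, where 2.7% of genes were, and 7 of 9 in WT, where 2.39% were. None was at least 2-fold lower, with 0 of 9 in either genotype, against 1.65% of genes on the Bid-/- arrays and 2.08% in WT. Nfkb2, Rel, Nfkbia, Nfkbib and Nfkbid passed 2-fold in both genotypes, 5 of 9 against 1.72% of genes. The median change of the 9 was 1.29 on the Bid-/- arrays and 1.31 in WT, where the medians of all genes were -0.10 and -0.05.

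**Figure D2:**
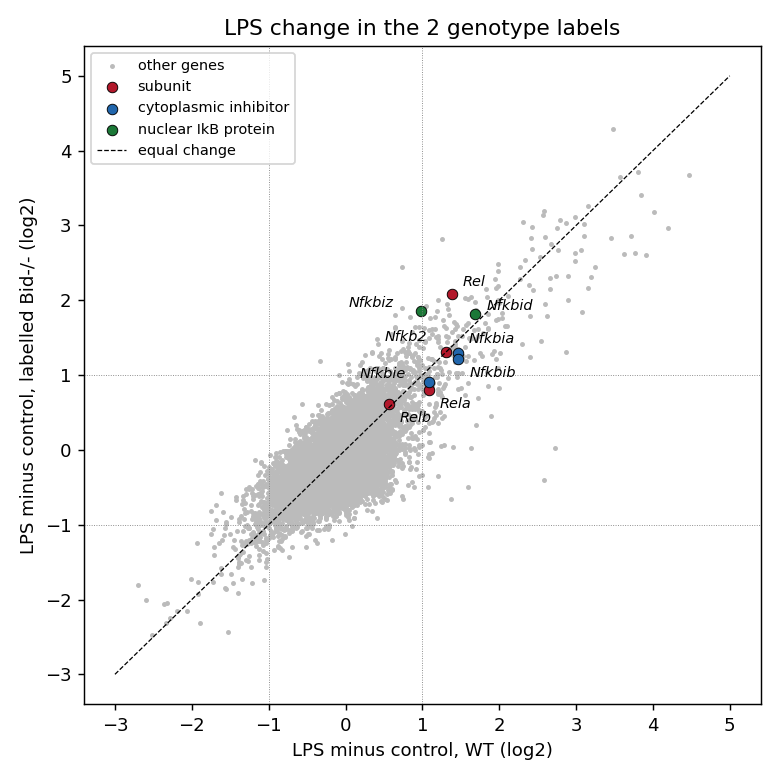
Log2 LPS change on the Bid-/- arrays (y axis) against that in WT (x axis) for the genes tested, each a grey point, with the 9 members coloured by role; the dashed line marks equal change and the dotted lines 2-fold. The members lie up and to the right of the bulk of genes; Rel (2.09 against 1.38) and Nfkbiz (1.86 against 0.98) lie farthest above the dashed line.

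Whether the labelled loss of Bid went with different levels of these genes was read from the Bid-/- arrays minus the WT arrays. Bid itself did not mark the label: its probe set read 5.97 on the Bid-/- LPS array and 5.02 on the WT LPS array, against 5.53 on the Bid-/- control array and 5.69 on the WT control array. The sources used here do not say whether its probes fall in the deleted sequence, so the reading may check nothing, and every direction between genotypes rests on the labels. With 1 array per label, the strain background and the culture cannot be told apart from Bid.

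No member differed 2-fold between the labels. With LPS, 0 of 9 were at least 2-fold higher or lower, against 0.326% and 0.489% of all genes, and without LPS 0 of 9, against 0.358% and 0.0733%. The members' median difference was 0.19 with LPS and 0.12 without, where all genes had a median of 0.01 in each. In the limma fit 0 of 9 members and 0% of 11326 genes passed for genotype in either direction; at an unadjusted p under 0.05 there were 446 genes higher and 263 lower, among them 1 member, Nfkbie, which was higher.

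Nfkbie was 0.45 higher with LPS and 0.62 higher without on the Bid-/- arrays (mean 0.54, SE 0.15, limma adjusted p = 0.623). Over 10 settings of the limma fit its adjusted p ran from 0.0186 to 0.688. It passed in 1 of them, with a trend of expression with gene span removed, where 325 genes passed for genotype on 504 prior degrees of freedom. Fibroblast and mural markers moved with the difference without LPS: 9 of 11 were higher on the Bid-/- control array, with a median difference of 0.65, and 7 of 11 on the Bid-/- LPS array, with a median of 0.13. Their part in the Nfkbie difference was not tested.

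**Figure D3:**
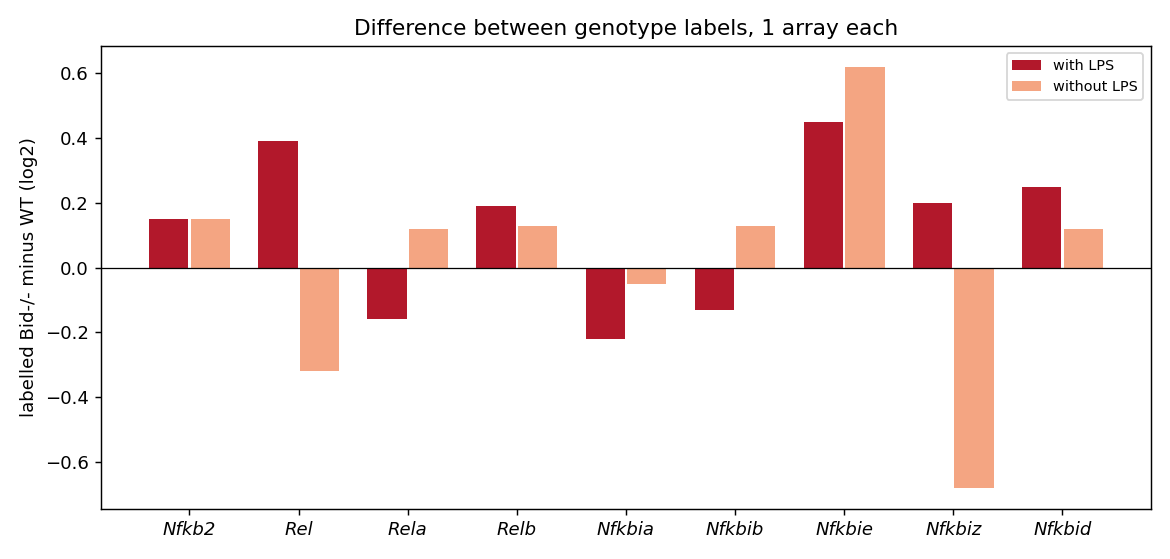
Log2 expression on the array labelled Bid-/- minus that on the WT array (y axis) for each member, with LPS (dark bars) and without (light bars), 1 array each and so without error bars. Nfkbie is higher in both conditions, while Rel and Nfkbiz are lower without LPS (-0.32 and -0.68) and higher with it (0.39 and 0.20).

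Rel and Nfkbiz had the largest differences of LPS response between the labels. The response of Bid-/- cells to LPS minus that of WT cells was 0.88 for Nfkbiz and 0.71 for Rel, which rank 40 and 157 from the top of 11326 genes. Both were lower on the Bid-/- control array than on the WT control array (-0.68 for Nfkbiz, -0.32 for Rel) and higher on the Bid-/- LPS array than on the WT LPS array (0.20 and 0.39). For the other 7 members this difference of response ran from -0.28 (Rela) to 0.13 (Nfkbid), and Nfkb2 had 0. Over the 9 the median was 0, as over all genes. None reached 2-fold, 0 of 9 against 0.159% of genes higher and 0.627% lower. Under 7 other processings the value stayed between 0.65 and 0.87 for Rel and between 0.85 and 1.07 for Nfkbiz, so that Nfkbiz passed 2-fold after quantile normalization alone. The 4 arrays leave no test of this difference, and it shares its arrays with the comparisons above.

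The genes most like the 3 members with the largest mean LPS change were sought over the 4 arrays, by Euclidean distance after centring each gene on its own mean, among 11317 genes. Nearest to Nfkbid were Slc39a14, a zinc and iron transporter (distance 0.081 on the log2 scale), and Sdc4, the proteoglycan syndecan-4 (0.12). Rel was nearest to Zc3h12a, which encodes the ribonuclease Regnase-1 (0.16), and to Heca (0.21). For Nfkbiz they were the microRNA gene Mir181b-1 (0.17) and Dcun1d3, a neddylation cofactor (0.19). Mir181b-1 had the lower reading on the Bid-/- control array too, 4.96 against 5.75 on the WT control array. Its choice by likeness to Nfkbiz on these same arrays favours that. Neither Mir181b-1 nor Dcun1d3 passed for LPS (limma adjusted p = 0.0912 and 0.0554). With only 4 arrays such likeness is a description.

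Around the members, the genes of the pathway were read by step. Of 15 measured genes of the IKK complex and its upstream kinases and adaptors, 0 rose and 0 fell in the limma fit, and none reached 2-fold. Of all genes 1.68% rose and 1.56% fell, so 0 calls in so short a list is near that share. At an unadjusted limma p under 0.05, where 9.08% of all genes were higher and 19.7% lower, 2 of the 15 were higher and 1 lower. The median change of the 15 was 0.25 on the Bid-/- arrays and -0.02 in WT. Those with the largest mean change were Tab3 (0.58 on the Bid-/- arrays and 0.59 in WT) and Tab1 (-0.66 and -0.41), which bind the kinase TAK1, Tank, an adaptor of TBK1 (0.63 and 0.50), and Ube2n, the ubiquitin-conjugating enzyme Ubc13 (0.25 and 0.71). Ube2n has 2 probe sets, and only the one with the higher mean was read.

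The IkB degradation machinery likewise had 0 of 9 genes that passed, again near the share of all genes. At an unadjusted limma p under 0.05 it also had 0, where 9.08% of all genes were higher and 19.7% lower. Fbxw11, an F-box protein that recognises phosphorylated IkB, changed by 0.52 with LPS on the Bid-/- arrays and by 0.18 in WT. Its paralogue Btrc changed by -0.17 and -0.34, the deubiquitinase Uchl5 by -0.40 and -0.29, and the ligase subunit Skp1 by -0.41 and -0.12.

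Among 15 other IkB-like and nuclear regulators 0 passed in the limma fit, again near the share of all genes. At an unadjusted limma p under 0.05, where 9.08% of all genes were higher and 19.7% lower, 2 of these regulators were higher and 4 lower. Peli1, a ubiquitin ligase of the TLR pathway, was 1.85 higher on the Bid-/- arrays and 1.19 in WT, the only one of them past 2-fold, and had an adjusted p of 0.0517. The Ras-like IkB-binding gene Nkiras1 changed by -0.82 and -0.39, the chromatin reader Ing4 by -0.55 and -0.61, and the deacetylase Sirt1 by 0.53 and 0.52.

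Of 31 measured NF-kB target genes, 17 rose and 0 fell, against 1.68% of all genes that rose. The median change was 1.29 on the Bid-/- arrays and 1.75 in WT. At an unadjusted limma p under 0.05 there were 25 higher and 1 lower, against 9.08% and 19.7% of all genes. The lower one was Irf1, an interferon regulatory factor, which changed by -0.68 on the Bid-/- arrays and -0.64 in WT. It was named after its values were seen. Irf1 has 2 probe sets, and only the one with the higher mean was read. The genes with the largest mean change were the cytokines Il6 (3.68 and 4.47), Csf2 (3.18 and 4.01) and Il12b (2.86 and 3.72) and the chemokine Cxcl1 (2.96 and 4.20), with limma adjusted p between 0.0225 and 0.0327. Csf2 lay under the floor of 4.26 on both control arrays (3.48 on the Bid-/- and 3.52 on the WT one) and Il12b on the WT control array (3.70), so the size of their changes is less certain and they are given in no order. In each genotype these 4 had larger changes than any subunit or inhibitor gene, which their selection by size of change favours. On the Bid-/- arrays the median change of the whole target list equalled that of the members, 1.29. In WT the list had 1.75 and the members 1.31. The target list holds well-known inflammatory genes and was written with earlier results of these arrays known.

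**Figure D4:**
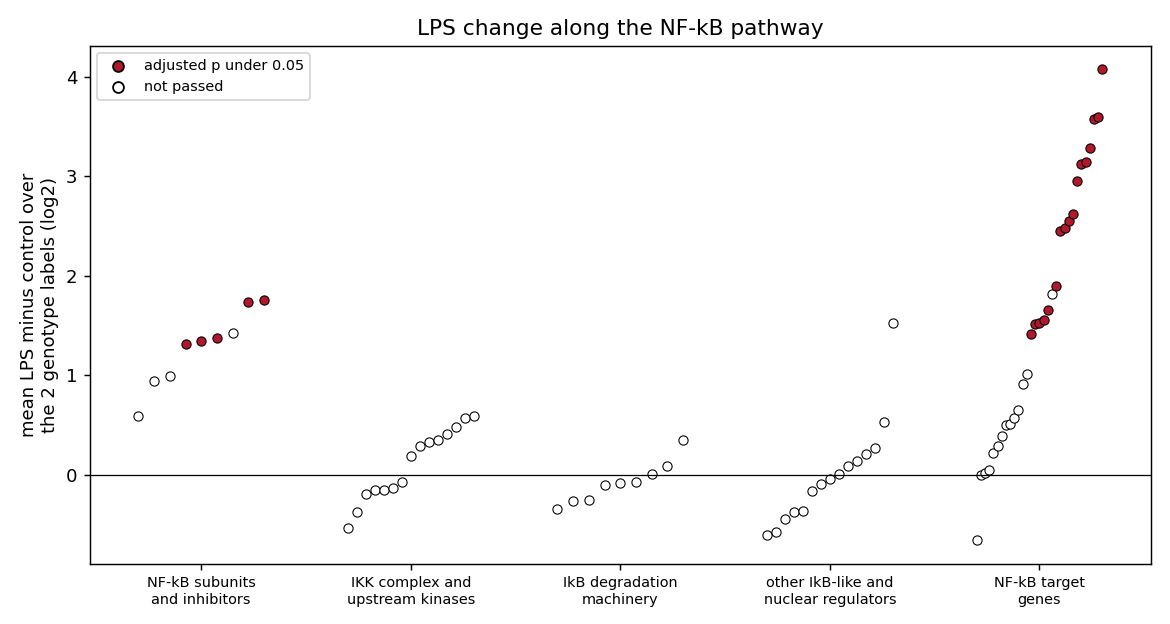
Mean log2 LPS change over the genotype labels (y axis) for each measured gene of the members and of 4 pathway lists, sorted within a list; filled points passed the additive limma fit at an adjusted p under 0.05. Filled points occur among the members (5 of 9) and the target genes (17 of 31) and in none of the other 3 lists. Of all genes 1.68% passed as higher and 1.56% as lower, so 0 in lists this short is near that share.

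The labelled cell type was checked against its markers. Of 13 measured microglia markers 11 reached the floor, among them Itgam (10.44 to 10.60 over the 4 arrays) and Csf1r (10.10 to 10.78), while P2ry12 ran from 3.90 to 4.38 and Siglech and Gpr34 were below the floor on all 4. The median LPS difference of the microglia markers was -0.33 on the Bid-/- arrays and -0.13 in WT, and Cx3cr1, the fractalkine receptor, fell by 1.41 and by 1.12 (limma adjusted p = 0.045). Of all 19938 genes, 11326 reached the floor on at least 1 array. A count of markers that reached it therefore does not by itself show that a cell type was present. The floor was reached by 3 of 6 astrocyte markers (not Gfap or Aqp4) and 5 of 7 of the oligodendrocyte lineage. It was also reached by 4 of 6 of endothelium, 1 of 6 of lymphocytes, 0 of 6 of neurons and 0 of 7 of neutrophils. Of 11 fibroblast and mural markers 9 did, with a mean level of 5.35 on the Bid-/- LPS array, 5.44 on the WT LPS array, 5.44 on the Bid-/- control array and 4.77 on the WT control array. In bulk RNA a change in the share of a cell type and a change in RNA per cell cannot be told apart. The median LPS difference of these markers was -0.04 on the Bid-/- arrays and 0.67 in WT, beside a median change of the members of 1.29 and 1.31.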

How the data were processed

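RNA from 4 microglia samples was measured on 1 array each. The deposited table holds log2 expression per probe set; per the submitters' processing notes the tools were RMA, Affymetrix Expression Console and Partek 6.2, whose roles are not stated. No log base is stated; log2 was read from the values (2 decimals, 1.4 to 13.5), and every fold rests on that reading. RMA equalises the distributions of arrays, which would remove a shift common to all genes. Scanner values were not used. The number of arrays limits the precision.

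Per gene, the single-symbol probe set with the highest mean was used (19938 genes). Genes were compared when the highest array in the comparison reached 4.26, the median over all probe sets. Differences between 2 arrays have no test. The additive fit used limma 3.58.1 in R 4.3.3 (lmFit and trended eBayes, Benjamini-Hochberg adjusted over 11326 genes, threshold 0.05). It was also run on simulated data, which were not rounded and had equal LPS changes in both genotypes. Of the 11326 genes 169 had a residual of exactly 0, because values are rounded, and the fit's prior degrees of freedom were 3.07. The simulated data did not cover such residuals. Whether the LPS and control arrays of a label share a culture is not stated. The residual is the difference of LPS response between the labels, so by those labels it does not hold technical spread alone. Without replicates these p-values cannot show how far cultures of the same genotype would differ.

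The members, lists, tests and alternatives were chosen with earlier results of these data known. Named were the members, Bid, the up to 4 genes of each pathway list with the largest mean LPS change, and the 2 nearest genes of each of 3 members. Some genes of the lists are not analysed here. Promoter sequences are from RefSeq, GRCm38.p6, matched by symbol.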

Additional observations from a re-analysis of the deposited data

Results flagged for a closer look

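The following genes differed between the genotype labels in opposite directions with and without LPS, on 1 array each; the difference between those directions was not tested. For Rel the response of Bid-/- cells to LPS minus that of WT cells was 0.71, and for Nfkbiz it was 0.88. For Rela it was -0.28 and for Nfkbib -0.26. The Nfkbib difference with LPS, -0.13, turned to 0.06 after quantile normalization, so its opposite directions depend on the scaling. Bid itself had 1.11, with an LPS change of 0.44 on the Bid-/- arrays and -0.67 in WT.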

How the results depend on the processing

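The members' median differences in the 4 pairwise comparisons moved by no more than 0.11 on the log2 scale under the alternatives, except that the median LPS change of the Bid-/- arrays was 1.45 once a gene span trend was removed. The count of members past 2-fold in the difference of response was 1 after quantile normalization and 0 otherwise. Of the members' single differences, some small ones changed sign: that of Nfkbib between genotypes with LPS ran from -0.13 to 0.06, and the difference of response of Nfkbia from -0.17 to 0.03.

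The number of calls in the additive limma fit moved most. For LPS, 367 genes passed as reported, 1928 after quantile normalization, 2924 with arrays centred on their medians, 1794 with an intensity trend removed, 2710 with a span trend removed, 0 without a floor, 891 with a stricter floor, and 1930 with noise inside the rounding. The members called were 5 as reported, 9 in those settings apart from 0 without a floor and 8 with the stricter one. For genotype, 0 genes passed as reported, 40, 289, 16 and 325 in the first 4 of these settings and 3 with noise inside the rounding; 1 member, Nfkbie, passed once the span trend was removed. A residual of exactly 0 was found for 169 genes as reported and for 0 genes with centred arrays, trend removal or added noise. The prior degrees of freedom were 3.07 as reported, 10.8 after quantile normalization, infinite with centred arrays and 9.45 with an intensity trend removed. They were 504 with a span trend removed, 3.83 with the stricter floor and 7.41 with added noise. A higher value takes more of each gene's error from other genes, so the larger counts of calls are no further evidence. The share of LPS calls that were higher was 51.8% as reported and 29.8% with centred arrays. No paired analysis was possible because each group has 1 array and the labels carry no replicate number.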
